A study of Mus musculus with 6 samples.

Results

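The genes described here are 38 components of autophagy and of the lysosome, taken by symbol from a liver count table of 24421 gene symbols. They were chosen by function, with earlier results of these data known. All 38 were in the table and had enough reads to be tested among 12945 genes. They cover the initiation kinase complex, the class III PI3-kinase complex, PI3P effectors, the conjugation machinery, the ATG8 family, cargo receptors, the MiT/TFE transcription factors and lysosomal membrane proteins, pumps, proteases and glycosidases. The livers came from male C57BL/6 mice at 4 months of age, and 6 RNA-seq libraries were made, 3 from mice lacking Sesn3 (KO) and 3 from WT (wild type) mice. Both groups had eaten for 4 weeks a diet with 40% of its energy from fat, 40% from carbohydrate and 20% from protein, to which cholesterol (1.25%) and sodium cholate (0.5%) had been added. There was no group on another diet, and the labels do not say how the allele was made.

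Autophagy wraps cytoplasm, organelles or protein aggregates in a double membrane, the autophagosome, which fuses with the lysosome, where acid hydrolases digest the cargo. The ULK kinase complex starts the process and is held back by the nutrient-sensing kinase mTORC1. The same kinase keeps TFEB and TFE3, the transcription factors of lysosomal genes, out of the nucleus. Sestrin 3, the product of Sesn3, belongs to a family of stress-inducible proteins that restrain mTORC1, and hepatocytes use autophagy to turn over organelles, glycogen and lipid droplets. Much of this control acts on proteins. Transcript levels measure neither the flux of cargo through the lysosome nor the phosphorylation state of these factors.

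TFEB and TFE3 bind an E-box, CACGTG, that is frequent before lysosomal genes and that forms the core of the CLEAR element. Of the 38 members, 30 had a promoter in RefSeq (GRCm38.p6), and 10 of these 30 (33.3%) held CACGTG in the window from 250 bases before to 50 bases after a start site. The longer palindrome TCACGTGA, which contains CACGTG, was in 5 of the 30 (16.7%). Over all 27025 genes with such a window the shares were 8.09% and 1.12%, and over all 32851 windows they were 7.15% and 0.974%. Each motif is its own reverse complement, so 1 search covers both strands. The 10 genes were Atg14, Atg3, Atg5, Atg7, Atp6v0d1, Ctsd, Ctsl, Gla, Lamp1 and Mcoln1. The stretches below show where these letters stand in 6 of them, limited to bases before the gene's first annotated start, 5′ to 3′ on the gene's strand, with CACGTG in capitals.
Lamp1, chr8:13159080-13159160, plus strand: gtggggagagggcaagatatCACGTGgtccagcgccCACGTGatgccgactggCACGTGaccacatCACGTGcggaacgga
Mcoln1, chr8:3500428-3500456, plus strand: ttagaaagggtcgcgcttgtCACGTGttc
Gla, chrX:134601174-134601252, minus strand: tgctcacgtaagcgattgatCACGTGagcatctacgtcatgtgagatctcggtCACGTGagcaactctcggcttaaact
Ctsd, chr7:142388039-142388077, minus strand: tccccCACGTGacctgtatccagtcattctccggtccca
Atg3, chr16:45158715-45158783, plus strand: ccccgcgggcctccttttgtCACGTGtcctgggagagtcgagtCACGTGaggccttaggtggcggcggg
Atg5, chr10:44268305-44268338, plus strand: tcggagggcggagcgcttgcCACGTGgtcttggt
Lamp1 has 4 copies in its stretch, Gla and Atg3 have 2 each, and Mcoln1, Ctsd and Atg5 have 1 each. The searched windows of Mcoln1 and Ctsd hold a further copy outside the stretch, at -45 and -98 from the RefSeq start site. In both genes that further copy is the one within TCACGTGA. A match is a description of the letters and no evidence of binding. The genes that carry the motif did not share a direction between the genotypes: the log2 fold change of KO minus WT was 0.93 for Ctsd, 0.36 for Gla, 0.07 for Lamp1, -0.25 for Atg5, -0.35 for Mcoln1 and -0.37 for Atg3, and none of these 6 passed the test. Another motif, TGACNNNGC, the core of the antioxidant response element bound by NRF2, was searched on both strands and found in 6 of 30 (20.0%, against 13.99% of genes and 12.4% of all windows), Ulk2 and Ctsd among them. No match to the 3 motifs was found for Sqstm1, and bases outside the windows were not searched for any gene.

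The libraries held between 18882220 and 24098512 counts, and the members between 57 and 53622 counts in a library. Sesn3 had 16 to 18 counts in the KO libraries and 172 to 200 in the WT libraries. The hepatocyte markers (8 of 8 tested, Alb among them) summed to between 123813 and 146213 CPM in KO and between 107507 and 164063 CPM in WT. Their median log2 fold change was -0.32 (-0.10 with library size only), 2 of the 8 were positive, and edgeR called 0. At an unadjusted edgeR p under 0.05, and also with DESeq2, 0 were higher and 3 (37.5%) lower. Over all tested genes 12.5% were higher and 13.3% lower at the unadjusted p, and 7.11% and 8.2% with DESeq2. CPM are a gene's counts relative to its library's total after scaling by TMM factors. Without these factors all fold changes shift upwards by a median of 0.21 on the log2 scale, and all fold changes below are relative to TMM scaling.

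Few of the 38 genes passed the test between the genotypes. Sqstm1, which encodes the cargo receptor p62, rose, and Ulk2, a kinase of the initiation complex, fell. The other 36 did not pass an adjusted p of 0.05 in edgeR's quasi-likelihood test. The 1 member called higher (2.63%) and the 1 called lower (2.63%) stand beside 3.36% of all tested genes called higher and 3.58% called lower, so the share called was close to the background. The median log2 fold change of the members was -0.04, against 0.00 over all tested genes, and 31 of the 38 lay within 0.5 of 0. Positive values were found in 16 members and negative values in 22, and 50.3% of all tested genes were positive. The members' median was 0.01 with upper-quartile factors and 0.16 with library size only. At an unadjusted p under 0.05 there were 6 higher and 6 lower members (15.8% each), against 12.5% and 13.3% of all tested genes. In whole liver, fewer cells of a type and less RNA per cell cannot be told apart. With library size only, 4 members (Sqstm1, Ctsb, Ctsd and Ctsl) were called higher and Ulk2 was no longer called, and over all genes the split went from 435 higher and 463 lower to 707 and 258. With DESeq2, 4 members (10.5%) were called higher and 3 (7.89%) lower, against 7.11% and 8.2% of all genes. The DESeq2 calls were the same 4 higher genes, and Ulk2, Atg14 and Lamp2 on the lower side.

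In 5 members every KO library was above every WT library (13.2%, against 16.9% of all tested genes), and in 10 every KO library was below every WT library (26.3%, against 16.6%). The 5 were Sqstm1, Tfe3, Ctsb, Ctsd and Ctsl. The 10 were Ulk2, Atg101, Becn1, Atg14, Atg7, Gabarapl2, Tfeb, Lamp2, Mcoln1 and Atp6v0d1. Within WT, replicate 2 had the highest of the 3 values in 17 members and replicate 1 the lowest in 21.

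**Figure D1:**
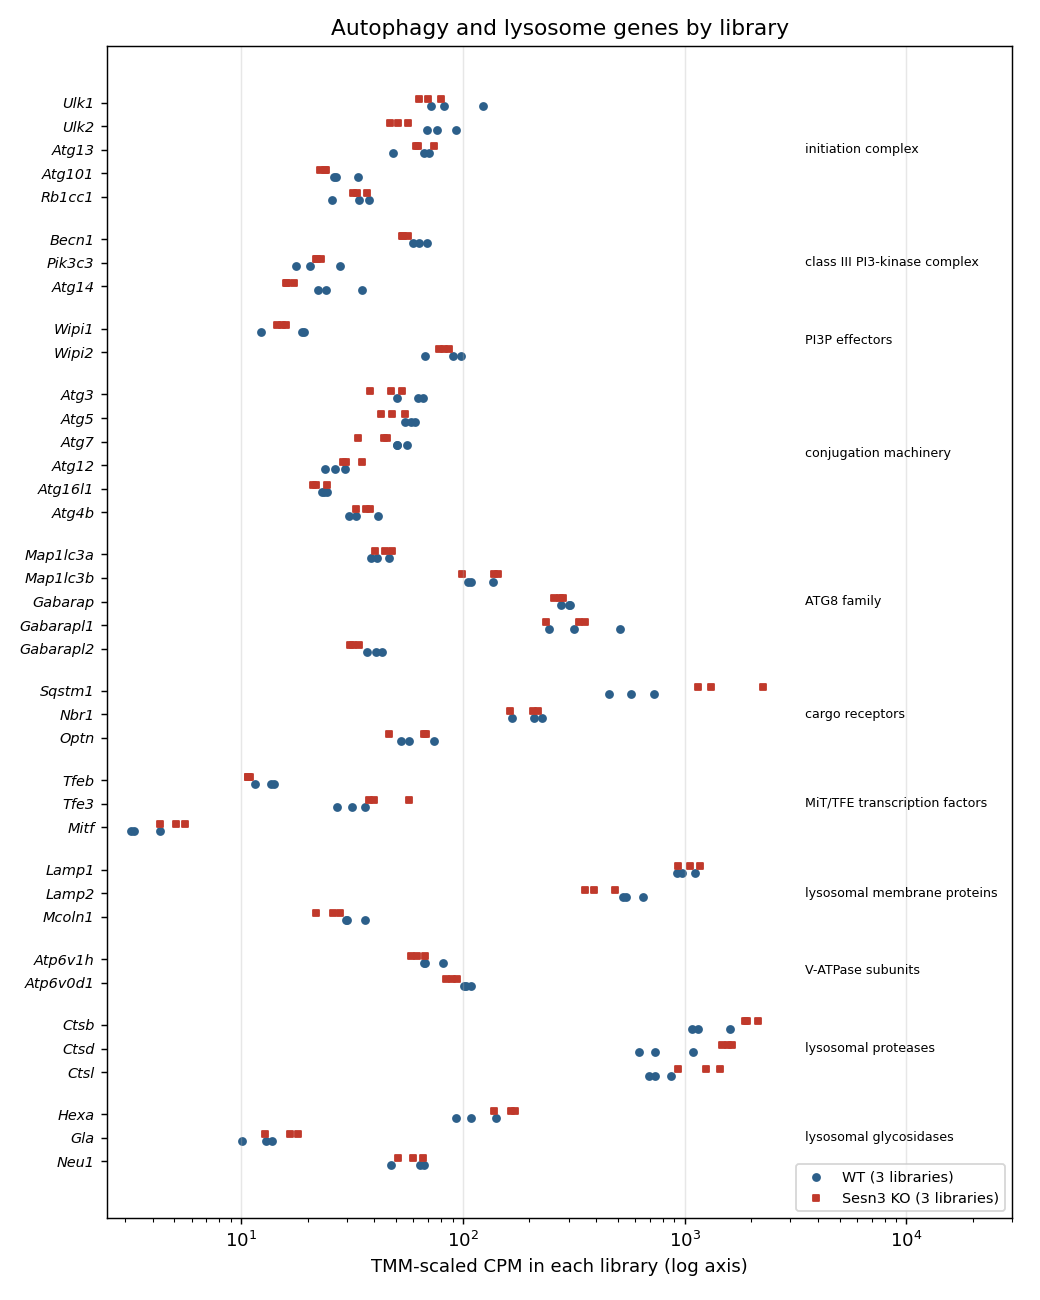
TMM-scaled CPM of each of the 38 members in every library (log axis), grouped by role, with WT libraries as blue circles and KO libraries as red squares. For most genes the symbols of the genotypes interleave or lie close together. Those of Sqstm1 and the cathepsins Ctsb, Ctsd and Ctsl are apart, with KO to the right. Those of Ulk2 and Atg14, among others, are apart with KO to the left. Every KO library is above every WT library in 5 members (13.2%, against 16.9% of all tested genes) and below in 10 (26.3%, against 16.6%).

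Cargo receptors bind ubiquitinated cargo and hand it to the ATG8 proteins on the growing membrane. Sqstm1 stood at 2266, 1321 and 1144 CPM in KO replicates 1, 2 and 3 and at 574, 459 and 726 CPM in WT replicates 1, 2 and 3. All KO libraries were above all WT libraries, and KO replicate 1 was by far the highest of the 6. The gene, on chromosome 11 from 50199366 to 50210827 (mm10, minus strand), averaged 1577 ± 603 CPM in KO and 586 ± 134 CPM in WT (SD, n = 3). This is a 2.69-fold difference (log2 1.43, SE 0.31) with an edgeR adjusted p of 0.0390, and it also passed with DESeq2 (6.77e-05) and limma-voom (0.0353). The call was lost in each of the 6 fits that left out 1 library, with a log2 fold change between 1.08 (without KO replicate 1) and 1.61 and an edgeR adjusted p of up to 0.106. The p62 protein is itself degraded by autophagy, so its transcript does not give the protein level.

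The other receptors showed no such difference. Nbr1, a receptor with a domain layout like that of p62, was at 164, 209 and 219 CPM in KO and 168, 229 and 210 CPM in WT. Optn, optineurin, a receptor for damaged mitochondria and bacteria, was at 46.4, 66.9 and 68.2 CPM in KO and 52.7, 57.5 and 74.0 CPM in WT. The genotypes overlapped in both, with log2 fold changes of -0.04 (SE 0.17) and -0.02 (SE 0.19), and with library size only or upper-quartile factors both values were above 0.

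Lysosomal proteases digest the delivered protein. Ctsd, the aspartic protease cathepsin D, was at 1566, 1481 and 1640 CPM in KO and at 1092, 624 and 736 CPM in WT. The KO libraries lay close together and above all WT libraries, and WT replicate 1 was the highest of its group. The log2 fold change was 0.93 (SE 0.24, 1.91-fold) and narrowly missed the threshold (edgeR adjusted p = 0.0579). It passed without WT replicate 1 (log2 1.21, adjusted p = 0.0281), with no filter on low counts (0.0480), with library size only (0.0381) and with DESeq2 (0.00136). Ctsb, the cysteine protease cathepsin B, was at 1920, 1867 and 2152 CPM in KO and at 1607, 1146 and 1082 CPM in WT, again with WT replicate 1 nearest to KO (log2 0.63, SE 0.21, edgeR adjusted p = 0.114). Ctsl, cathepsin L, was at 933, 1441 and 1253 CPM in KO and 693, 732 and 869 CPM in WT (log2 0.66, SE 0.21, adjusted p = 0.102). In both genes the groups did not overlap, and both passed with DESeq2 (adjusted p = 0.0166 and 0.0168) and with library size only (0.0485 and 0.0473).

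Sqstm1 and these 3 cathepsins, a set picked after their values were seen, held between 61.0% and 67.2% of the members' summed CPM in KO and between 41.2% and 51.7% in WT. The 38 together summed to 9975 ± 164 CPM in KO and 7350 ± 280 CPM in WT. The sum of the 4 was 6328 ± 312 CPM in KO and 3447 ± 503 CPM in WT (SD, n = 3 each). That of the other 34 members was 3647 ± 352 CPM in KO and 3904 ± 281 CPM in WT, and these ranges overlapped.

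**Figure D2:**
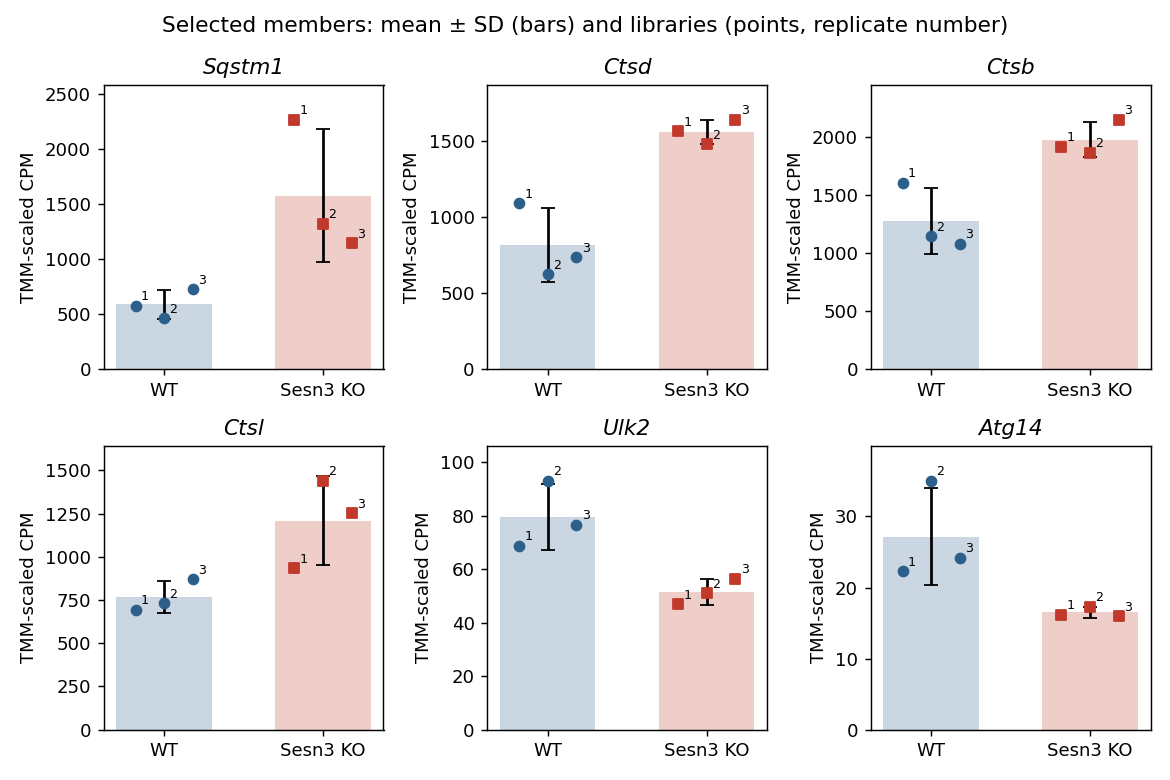
TMM-scaled CPM of Sqstm1, Ctsd, Ctsb, Ctsl, Ulk2 and Atg14, with group means as bars, the SD as error bars and each library as a point with its replicate number. KO replicate 1 is the highest point of Sqstm1 at 2266 CPM, and WT replicate 1 is the WT point nearest to KO for Ctsd and Ctsb.

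The initiation complex consists of the kinase ULK1 or ULK2 with ATG13, ATG101 and FIP200, the product of Rb1cc1. Ulk2, on chromosome 11 from 61775649 to 61855073 (mm10, minus strand), was at 47.0, 51.0 and 56.6 CPM in KO and 68.9, 93.2 and 76.7 CPM in WT. All KO libraries were below all WT libraries. It fell 1.55-fold, to a mean of 51.5 ± 4.83 from 79.6 ± 12.4 CPM (SD, n = 3; log2 fold change -0.63, SE 0.14, edgeR adjusted p = 0.0451). The call was kept without WT replicate 1 and lost when any other library was left out (adjusted p of up to 0.167), as well as with library size only (log2 -0.41, 0.0745). Its paralog Ulk1 was at 63.5, 80.1 and 69.9 CPM in KO and 72.1, 124 and 82.6 CPM in WT. These groups overlapped, and the log2 fold change of -0.38 (SE 0.21) did not pass (adjusted p = 0.298). Atg101, which stabilises ATG13, was at 22.7, 23.8 and 24.3 CPM in KO and 26.4, 33.7 and 27.0 CPM in WT, without overlap (log2 -0.30, SE 0.13, adjusted p = 0.208). Atg13, the regulatory adaptor, and Rb1cc1, the scaffold, had log2 fold changes of 0.10 (SE 0.16) and 0.06 (SE 0.16), and without WT replicate 1 both were below 0.

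The class III PI3-kinase complex makes the lipid PI3P on the nascent membrane. Its autophagy-specific subunit Atg14 was at 16.2, 17.3 and 16.0 CPM in KO and 22.3, 35.1 and 24.2 CPM in WT. The KO libraries were tightly grouped below all WT libraries, and WT replicate 2 was the highest. The log2 fold change was -0.72 (SE 0.18, 1.65-fold), the most negative value among the 38, and it missed the threshold (edgeR adjusted p = 0.0598), although it passed without WT replicate 1 (0.0419) and with DESeq2 (0.0113). Becn1, which encodes the subunit beclin 1, was at 53.5, 56.8 and 53.9 CPM in KO and 59.5, 68.7 and 63.6 CPM in WT, without overlap. Its log2 fold change was small (-0.22, SE 0.10, edgeR adjusted p = 0.224). Pik3c3, the catalytic subunit, differed by 0.01 on the log2 scale (SE 0.18), with KO at 21.7 to 23.1 CPM inside the WT range of 17.7 to 28.0 CPM. The PI3P effectors Wipi1 and Wipi2, which recruit the conjugation machinery, had log2 fold changes of -0.14 (SE 0.19) and -0.05 (SE 0.15), above 0 with library size only, and overlapped between the groups.

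The conjugation machinery attaches ATG8 proteins to lipid and builds the ATG12-ATG5-ATG16L1 complex. None of its 6 members passed, and their log2 fold changes ran from -0.37 to 0.23. Atg7, the E1-like enzyme, was at 33.8, 44.2 and 45.7 CPM in KO and 50.8, 56.2 and 50.6 CPM in WT, the only one of the 6 without overlap (log2 -0.35, SE 0.14, edgeR adjusted p = 0.169). Atg3, the E2-like enzyme, was at -0.37 (SE 0.16) and Atg5 at -0.25 (SE 0.12) on the log2 scale. Atg12, the ubiquitin-like partner of ATG5, was at 0.23 (SE 0.13), Atg4b, a protease that trims ATG8 proteins, at 0.04 (SE 0.14) and Atg16l1 at -0.08 (SE 0.11). The value of Atg16l1 was above 0 with library size only.

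The ATG8 family comprises the LC3 proteins and the GABARAP proteins, which coat the autophagosome and bind the receptors. Map1lc3b, the LC3 most used as a marker of autophagosomes, was at 99.7, 138 and 145 CPM in KO and 106, 136 and 109 CPM in WT. Map1lc3a was at 40.2, 47.8 and 44.7 CPM in KO and 38.5, 46.8 and 41.0 CPM in WT. Gabarap was at 258, 274 and 283 CPM in KO and 278, 305 and 301 CPM in WT. The genotypes overlapped in these 3 genes, and the log2 fold changes were 0.12 (SE 0.18), 0.07 (SE 0.12) and -0.11 (SE 0.12), with that of Gabarap above 0 with library size only. Gabarapl1 was at 238, 357 and 335 CPM in KO and 245, 512 and 318 CPM in WT, a 2.09-fold range within WT that was wider than the difference between the group means (log2 -0.21, SE 0.29, above 0 without WT replicate 2 and with library size only). Gabarapl2 was at 32.0, 34.1 and 31.0 CPM in KO and 37.0, 40.7 and 43.4 CPM in WT, without overlap (log2 -0.32, SE 0.11, edgeR adjusted p = 0.121).

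The MiT/TFE factors drive lysosomal genes. Tfeb was at 11.0, 10.7 and 10.8 CPM in KO and 14.1, 13.7 and 11.6 CPM in WT, all KO libraries below all WT libraries (log2 -0.28, SE 0.14, edgeR adjusted p = 0.248). Tfe3 lay the other way, at 57.1, 37.7 and 39.9 CPM in KO and 36.2, 27.2 and 31.8 CPM in WT (log2 0.50, SE 0.19, adjusted p = 0.148). As with Sqstm1, KO replicate 1 was the highest library for Tfe3. Mitf, at 4.32 to 5.58 CPM in KO and 3.2 to 4.34 CPM in WT, overlapped (log2 0.47, SE 0.23, adjusted p = 0.246). None of the 3 passed.

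Lysosomal membrane proteins and the proton pump showed small differences that did not pass. Lamp2, needed for fusion and for chaperone-mediated autophagy, was at 357, 390 and 488 CPM in KO and 527, 653 and 542 CPM in WT, without overlap (log2 -0.48, SE 0.18, edgeR adjusted p = 0.146, and 0.0496 with DESeq2). Its relative Lamp1 was at 937, 1059 and 1173 CPM in KO and 1111, 969 and 929 CPM in WT, with overlap (log2 0.07, SE 0.17). Mcoln1, a lysosomal calcium channel, was at 21.7, 25.9 and 27.9 CPM in KO and 30.1, 36.2 and 29.7 CPM in WT, without overlap (log2 -0.35, SE 0.14, adjusted p = 0.179). The pump subunit gene Atp6v0d1 was at 84.4, 93.9 and 89.1 CPM in KO and 109, 101 and 104 CPM in WT, without overlap (log2 -0.23, SE 0.10, adjusted p = 0.217). The pump subunit gene Atp6v1h overlapped, at -0.20 (SE 0.12), and reached 0.01 with library size only.

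The glycosidases remove sugars from glycolipids and glycoproteins. Hexa, a subunit of beta-hexosaminidase, was at 138, 164 and 172 CPM in KO and 141, 93.7 and 109 CPM in WT (log2 0.46, SE 0.18, edgeR adjusted p = 0.153). WT replicate 1 lay within the KO range. Gla, alpha-galactosidase A, was at 0.36 (SE 0.19) and the sialidase gene Neu1 at -0.01 (SE 0.17) on the log2 scale, and both overlapped between the genotypes.

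**Figure D3:**
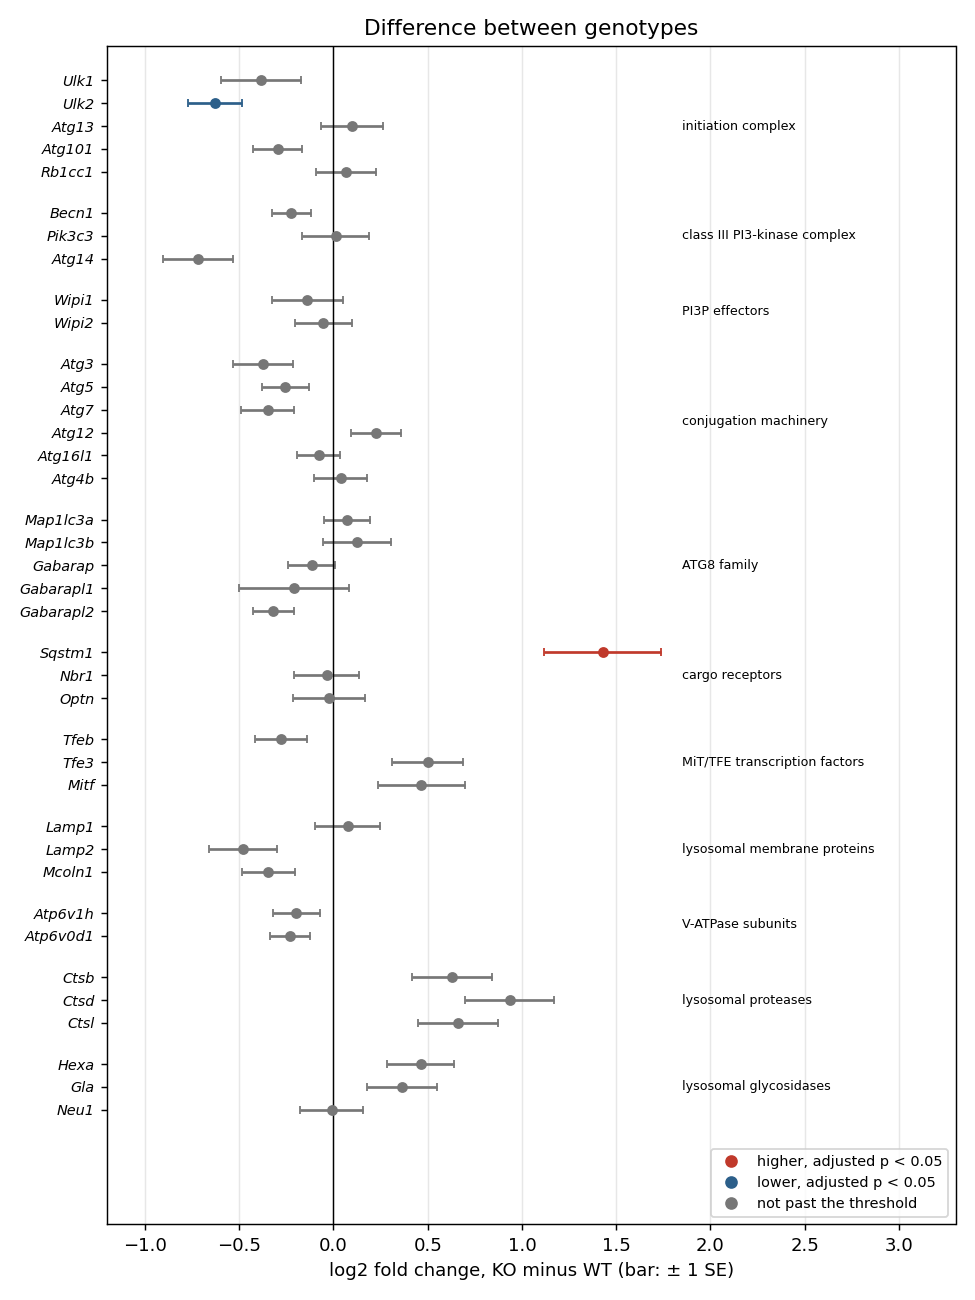
Log2 fold change (KO minus WT) of each member with ± 1 SE, grouped by role. Sqstm1 (1.43, red) and Ulk2 (-0.63, blue) passed an edgeR adjusted p of 0.05, the 3 proteases lie between 0.63 and 0.93, and most other values are within 0.5 of 0.

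Levels of different genes were compared as mean CPM per kilobase of merged exons (GENCODE M21), which is approximate because the annotation used for counting is not known. In WT, Lamp1 was the most abundant member at 375, followed by Ctsd at 348, Ctsb at 211, Gabarapl1 at 178, Sqstm1 at 175, Gabarap at 160 and Ctsl at 118 CPM per kilobase. In KO the order began with Ctsd at 665, Sqstm1 at 470, Lamp1 at 395 and Ctsb at 327 CPM per kilobase, so Sqstm1 went from rank 5 to rank 2 among the 38. In WT, 11 members were above the 90th percentile of tested genes and 4 below the 50th. These 4 were Atg16l1, Tfeb, Rb1cc1 and Mitf, and Mitf was lowest in both genotypes, at 0.584 CPM per kilobase in WT and 0.808 in KO.

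Lists of other genes of the pathway, chosen by function with earlier results of these data known, also held few calls. Among 36 tested autophagy genes outside the 38, edgeR called 0 higher and 1 lower (2.78%), against 3.36% and 3.58% of all tested genes. The median log2 fold change of the 36 was -0.13 (0.08 with library size only). DESeq2 called 0 higher and 3 lower, and at an unadjusted edgeR p under 0.05 there were 0 higher and 5 lower. The lower shares, 8.33% and 13.9%, were close to the 8.2% and 13.3% of all tested genes. Over all tested genes 7.11% were higher with DESeq2 and 12.5% at the unadjusted p. In 10 of the 36 (27.8%, against 16.6%) every KO library was below every WT library, and in 0 (against 16.9%) above. Of the 36, 11 (30.6%) were positive, against 50.3% of all tested genes. The 1 that fell was Trp53inp2, an adaptor that brings LC3 to the autophagosome, from 200 ± 4.59 CPM to 137 ± 13.1 CPM in KO (SD, n = 3), a log2 difference of -0.55 (SE 0.12, edgeR adjusted p = 0.0404). Its call was lost in all 6 fits without 1 library (up to 0.172), with upper-quartile factors (0.0549) and with library size only (0.185).

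Of 44 other lysosomal hydrolases and cofactors 2 rose and none fell (4.55% and 0%, against 3.36% and 3.58% of all tested genes). In this list 30 (68.2%) were positive, against 50.3% of all tested genes, and the median was 0.21. With library size only the median was 0.41 and 6 rose. Without 1 library the median ran from 0.12 (KO replicate 3) to 0.32 (WT replicate 1) and the higher calls from 0 to 4. Over all tested genes the higher calls went from 435 to 707 with library size only. Without 1 library they ran from 48 to 504. Gusb, beta-glucuronidase, was at 106, 122 and 117 CPM in KO and 60.8, 49.5 and 59.7 CPM in WT. The groups were far apart, with a log2 fold change of 1.02 (SE 0.13, edgeR adjusted p = 0.00752), and the call was lost only without KO replicate 2 (0.0544) among the fits without 1 library. Dnase2a, the acid DNase of the lysosome, rose from 26.9 ± 1.31 to 39.7 ± 2.11 CPM (log2 0.57, SE 0.10, adjusted p = 0.0250), a call lost when any KO library or WT replicate 3 was left out (up to 0.100). DESeq2 called 6 of the 44 higher and 0 lower, and at an unadjusted edgeR p under 0.05 there were 9 and 0. These are 13.6% higher with DESeq2, against 7.11% of all tested genes, and 20.5% higher at the unadjusted p, against 12.5%. The 0 lower stand beside 8.2% and 13.3% of all tested genes.

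Of 49 other lysosomal membrane, V-ATPase and sorting genes 3 rose and 1 fell (6.12% and 2.04%, against 3.36% and 3.58% of all tested genes), with a median of -0.03 (0.18 with library size only). DESeq2 called 7 higher (14.3%, against 7.11%) and 3 lower (6.12%, against 8.2%). Cd63, a tetraspanin of late endosomes and lysosomes, was at 66.6, 87.5 and 85.9 CPM in KO and 25.3, 8.72 and 23.5 CPM in WT (log2 2.06, SE 0.37, edgeR adjusted p = 0.0256). Igf2r, a mannose 6-phosphate receptor that delivers hydrolases, rose from 52.6 ± 2.24 to 78.2 ± 6.23 CPM (edgeR adjusted p = 0.0266, log2 0.57, SE 0.11). Of the 5 sorting genes tested, Igf2r alone had a positive log2 fold change. Tpcn2, a lysosomal cation channel, rose from 3.61 ± 0.684 to 7.95 ± 1.38 CPM (log2 1.13, SE 0.23, edgeR adjusted p = 0.0331). Fnip2, a folliculin partner in nutrient signalling at the lysosome, fell from 42.3 ± 3.32 to 28.8 ± 1.87 CPM (log2 -0.55, SE 0.11, adjusted p = 0.0332), but not with library size only (0.148). Without KO replicate 1, 2 or 3, or without WT replicate 3, none of the 49 passed. The largest log2 difference in this list was that of Atp6v0d2, named after its value was seen, a V-ATPase subunit isoform known from macrophages and osteoclasts. It was at 12.9, 23.2 and 21.2 CPM in KO and 7.17, 1.1 and 2.08 CPM in WT (log2 2.46, SE 0.62) and did not pass (adjusted p = 0.0600).

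**Figure D4:**
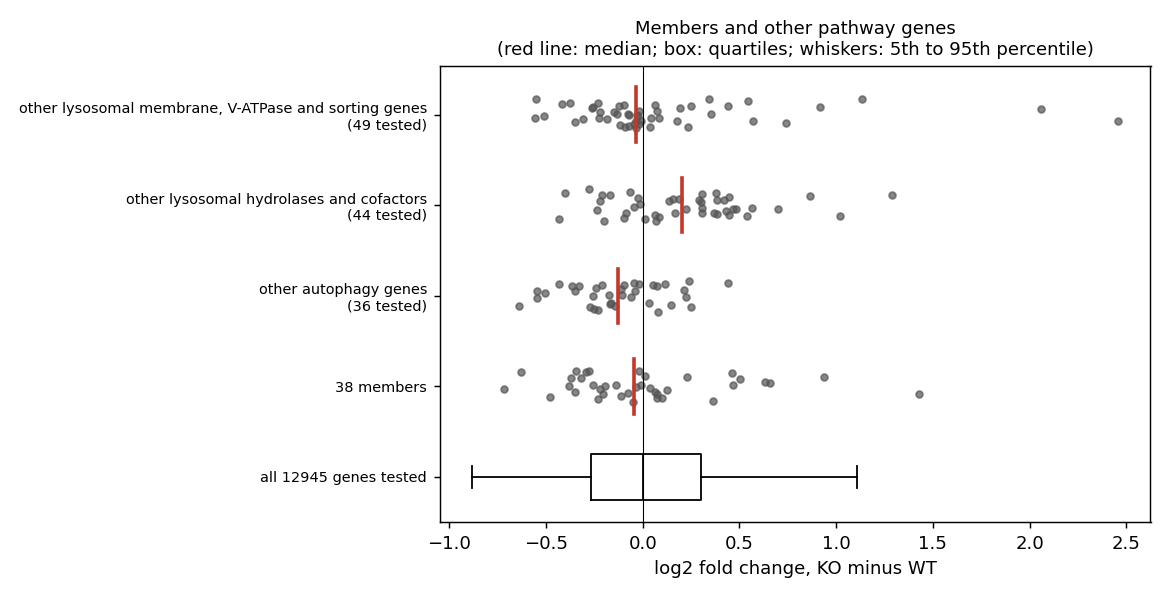
Log2 fold changes (KO minus WT) of the 38 members and of the 3 lists of other pathway genes, 1 point a gene, with the median in red, above a box of all 12945 tested genes (quartiles, whiskers from the 5th to the 95th percentile). The medians are -0.04, -0.13, 0.21 and -0.03, all inside the box.

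Macrophages are rich in lysosomes, and 6 of 20 tested macrophage markers passed the test. Of 12 Kupffer cell and macrophage markers 2 rose and none fell, with a median log2 fold change of 0.57, and of 8 markers of lipid-associated macrophages 4 rose and none fell, with a median of 1.51. The first list summed to between 2977 and 3530 CPM in KO and between 1275 and 3083 CPM in WT, which overlapped, and the second to between 923 and 1029 CPM in KO and between 176 and 405 CPM in WT. No marker of either list was at 0 in any library. Within WT, replicate 1 had the highest sum of both lists and replicate 2 the lowest. Ctsd and Hexa had that order, Ctsb was highest in replicate 1 and lowest in replicate 3, Ctsl was lowest in replicate 1 and highest in replicate 3, and Sqstm1 was highest in replicate 3. The part of macrophage RNA in the levels of the cathepsins, Cd63 or the other genes was not tested. The edgeR calls of the first list went to 0 without KO replicate 1, 2 or 3 or WT replicate 3. They went to 1 without WT replicate 2 and to 7 without WT replicate 1. Those of the second list went to 2 without KO replicate 1 or 3 or WT replicate 3, to 0 without KO replicate 2, to 5 without WT replicate 2 and to 6 without WT replicate 1. Of 8 stellate cell markers 3 rose (37.5%, against 3.36% of all tested genes). The 8 summed to between 661 and 844 CPM in KO and between 282 and 398 CPM in WT. These 3 calls were all lost without KO replicate 1 or 2 or WT replicate 3. DESeq2 called 5 of the 8 stellate cell markers higher (62.5%, against 7.11%). No tested marker of endothelial cells (6), cholangiocytes (6) or neutrophils (4) passed in edgeR or DESeq2. At an unadjusted edgeR p under 0.05, 1 endothelial marker was higher and 1 lower, 1 cholangiocyte marker was higher, and 0 neutrophil markers differed. Over all tested genes 12.5% were higher and 13.3% lower at that p.

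**Figure D5:**
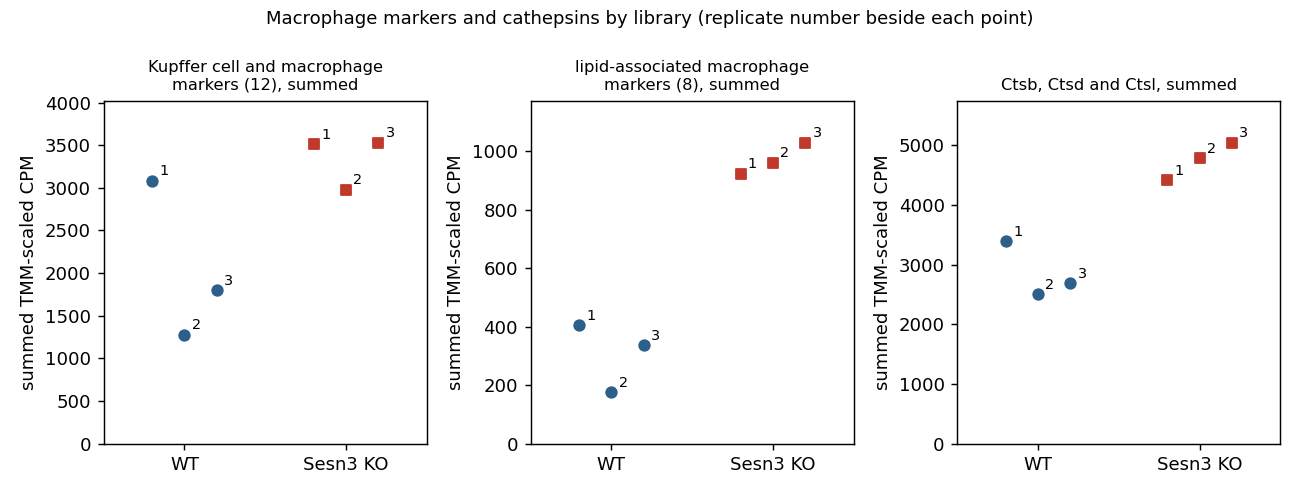
Summed TMM-scaled CPM of 12 Kupffer cell and macrophage markers, of 8 lipid-associated macrophage markers and of Ctsb, Ctsd and Ctsl in each library, with its replicate number. WT replicate 1 is the highest WT library in all 3 panels, and KO libraries are above all WT libraries in the panels of lipid-associated macrophage markers and of cathepsins.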

How the data were processed

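Liver RNA of 3 KO and 3 WT samples was measured. The authors deposited a table of raw read counts per gene symbol; STAR 2.5, featureCounts, Subread 1.5.3, edgeR 3.20.8 and build mm10 are named in the submitters' processing notes, and the use made of each, the annotation, strand and multi-mapping settings were not given in the sources used here. Processed pseudogenes of Gabarap, Map1lc3 and similar genes could therefore take or lend reads, and reads of overlapping antisense genes may not be told apart. Libraries were grouped by the genotype label and numbered in accession order. The labels do not say that each sample is a separate mouse, and the spread behind each p-value may therefore be technical.

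Tests were run with edgeR 4.0.16 in R 4.3.3 on all genes: filterByExpr (minimum count 10, minimum total 15), TMM factors, robust quasi-likelihood F-test, two-sided, Benjamini-Hochberg adjustment over 12945 genes, threshold 0.05. The SE is approximate, the size of the log2 fold change over the square root of its F. An exact permutation test of 3 against 3 cannot go below 0.1. Alternatives comprised DESeq2 1.42.0, limma-voom (limma 3.58.1), upper-quartile or RLE factors, no scaling beyond library size (library size only), all genes without a low-count filter, 1 CPM in 3 libraries, no robust dispersion and omission of 1 library at a time. Simulated data were used to test the scripts. Libraries of a group differed by more than sampling noise (chi-square per degree of freedom of at least 21.5).

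Positions and exon lengths came from GENCODE M21 (GRCm38, the assembly called mm10 by the labels), in which all 38 symbols matched 1 gene. Promoters came from RefSeq (GRCm38.p6). Rubcn and Retreg1 were found under older symbols, and Ly6g was not analysed here. The members, the lists and the rule for named genes were chosen with earlier results of these data known. All members are accounted for, and called genes of the 3 lists of other pathway genes are named. Called genes of the marker lists are counted and not named. Figures were drawn with matplotlib 3.10.9.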

Additional observations from a re-analysis of the deposited data

How the results depend on the processing

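No paired analysis was possible because the labels carry no replicate numbers shared by the genotypes. The 1 higher and 1 lower member became 4 and 3 with DESeq2 and 4 and 0 with library size only, and 2 were higher with no low-count filter. Leaving out 1 library gave 0 to 1 higher and 0 to 2 lower members. Over all genes, 435 higher and 463 lower became 921 and 1061 with DESeq2 and 707 and 258 with library size only, and 48 to 504 and 53 to 475 without 1 library. RLE factors, 1 CPM in 3 libraries, limma-voom, upper-quartile factors and no robust dispersion left 1 member on each side. The fits without 1 library hold fewer samples, and library size only omits the TMM shift of 0.21. Beyond that the cause was not tested.

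Signs reversed only in members within 0.21 of 0 on the log2 scale. With library size only, log2 fold changes became 0.074 for Wipi1, 0.16 for Wipi2, 0.13 for Atg16l1, 0.094 for Gabarap, 0.016 for Gabarapl1, 0.17 for Nbr1, 0.17 for Optn, 0.0100 for Atp6v1h and 0.20 for Neu1. With upper-quartile factors Wipi2 (0.0023), Nbr1 (0.017), Optn (0.029) and Neu1 (0.044) turned positive, as did Neu1 with no low-count filter (0.0046) and with 1 CPM in 3 libraries (0.00048). Without 1 library the values ran from -0.046 to 0.21 for Atg13, -0.073 to 0.20 for Rb1cc1, -0.11 to 0.22 for Pik3c3, -0.19 to 0.064 for Wipi2, -0.041 to 0.18 for Atg4b, -0.41 to 0.14 for Gabarapl1, -0.14 to 0.091 for Nbr1, -0.12 to 0.15 for Optn, -0.0072 to 0.16 for Lamp1 and -0.14 to 0.10 for Neu1. Each member had at least 57 counts in each library, and with 3 libraries a group a p that misses the threshold does not show that a gene did not differ.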
